A study of Drosophila melanogaster with 8 samples.

Results

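The genes described here are 4 heat shock and chaperone genes of Drosophila melanogaster. They were measured in separate pools of adult heads, either unwarmed or after a warming meant to activate neurons. The 4 genes are those of the non-coding RNAs lncRNA:alphagamma-element:CR32865 and lncRNA:Hsromega, the co-chaperone gene CG7130 and the constitutive chaperone gene Hsc70-1. They were chosen by their roles and by their differences between the 2 groups, which were known beforehand, so those differences are given as a description with no test. The array names its targets by transcript or clone, and 353 genes could be given a symbol. The 4 genes have 7 of the 418 named probes, and 7 of the 7 were well above background on all 8 arrays.

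All flies had the genotype w, elav-GAL4/+; UAS-dTrpA1/+ and were reared at 23 °C until they were adult. The elav-GAL4 driver is active in neurons, and dTrpA1 is a cation channel that opens with warmth. The channel is thus present in neurons, while a head pool also holds glia, fat body and muscle. The 4 control_23C samples stayed at 23 °C, and the 4 activated_31C samples were held at 31 °C for 1 h, with dissection directly afterwards. Each sample was a pool of 20 heads of both sexes on its own 1-colour array, and the labels give no age beyond adulthood. Both groups carried the channel, and no sample was warmed without it, so warmth and neural activity cannot be told apart. The arrays of a group shared 1 of the 2 slides, and slide cannot be told apart from group. In whole heads, fewer cells of a type and less RNA per cell cannot be told apart.

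When a cell is warmed, heat shock factor binds the promoters of the heat shock genes and they are transcribed strongly within minutes. The Hsp70 proteins made from them bind unfolded protein and release it in cycles of ATP hydrolysis, which J-domain co-chaperones (the Hsp40 family) start. Flies also transcribe non-coding RNAs at heat shock loci, among them the alphagamma elements that lie between Hsp70 genes and the Hsromega gene, whose nuclear transcripts gather hnRNP proteins in the omega speckles. Hsc70 genes encode cognate relatives of Hsp70 that cells make without stress.

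Levels are log2 processed signals minus the 75th percentile of the same array, so 0 is the level of a fairly bright probe and a step of 1 is a doubling. Levels of different probes are not compared as amounts of RNA, since probes differ in how well they bind. Of all 22442 probes tested, 237 lay over 4 log2 units below their own median of the 8 arrays on control_23C replicate 3 and 131 on control_23C replicate 4. The counts on the other control_23C arrays were 14 and 20, and on the activated_31C arrays between 0 and 27, with the 27 on replicate 3. The differences of the member probes are therefore also given without control_23C replicates 3 and 4 and activated_31C replicate 3. The 7 member probes were measured on every array with 0 saturated and 0 outlier-flagged values in 56, over a local background of 127.5 to 143 intensity units.

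The RNA lncRNA:alphagamma-element:CR32865 is read by probe A_09_P193426. Whether this probe also binds RNA of other alphagamma elements was not tested. The gene lies on chromosome arm 3R with Hsp70Ba as its neighbour on one side and Hsp70Bbb on the other in the Release 6 gene table, in which it overlaps no other gene. In control_23C its levels were −3.93, −4.19, −4.03 and −3.96 on replicates 1 to 4. In activated_31C they were 0.23, 0.04, 0.25 and −0.02. All activated arrays thus lay far above all control arrays, and the lowest activated array was 3.91 log2 units above the highest control array. The mean went from −4.03 ± 0.12 (SD, n = 4) to 0.13 ± 0.13, a log2 difference of 4.16 (SE 0.0887) or 17.8-fold. In intensity units the control arrays read 286 to 350 and the activated arrays 4544 to 6095. Without the 3 arrays named above the difference was 4.15.

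CG7130 encodes a small J-domain protein of the Hsp40 family and is read by probe A_09_P035716, which is printed in 2 spots on the array. It lies on chromosome arm 3L between CG7133, a further J-domain gene, and the ribosomal protein gene RpLP0. Its control_23C levels were −2.06, −2.19, −2.19 and −1.86. Its activated_31C levels were 1.32, 1.30, 1.52 and 1.24. The groups did not overlap, with over 3 log2 units between the nearest arrays. The mean went from −2.08 ± 0.16 (SD, n = 4) to 1.35 ± 0.12, a log2 difference of 3.42 (SE 0.0985) or 10.73-fold, and 3.41 without the 3 arrays. The 2 spots on an array differed by 0.00871 to 0.0912 on the log2 scale, so the spread between spots was far below the difference between groups. On each array the signal of lncRNA:alphagamma-element:CR32865 relative to that of CG7130 can be read with no scaling. That log2 ratio was −1.95 ± 0.12 in control_23C and −1.22 ± 0.09 in activated_31C, without overlap. The difference of the RNA thus exceeded that of CG7130 by 0.73 log2 units on the same arrays. The size of this excess depended on the background correction. With normexp background correction the differences were closer together, at 3.71 for the RNA and 3.28 for CG7130.

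**Figure D1:**
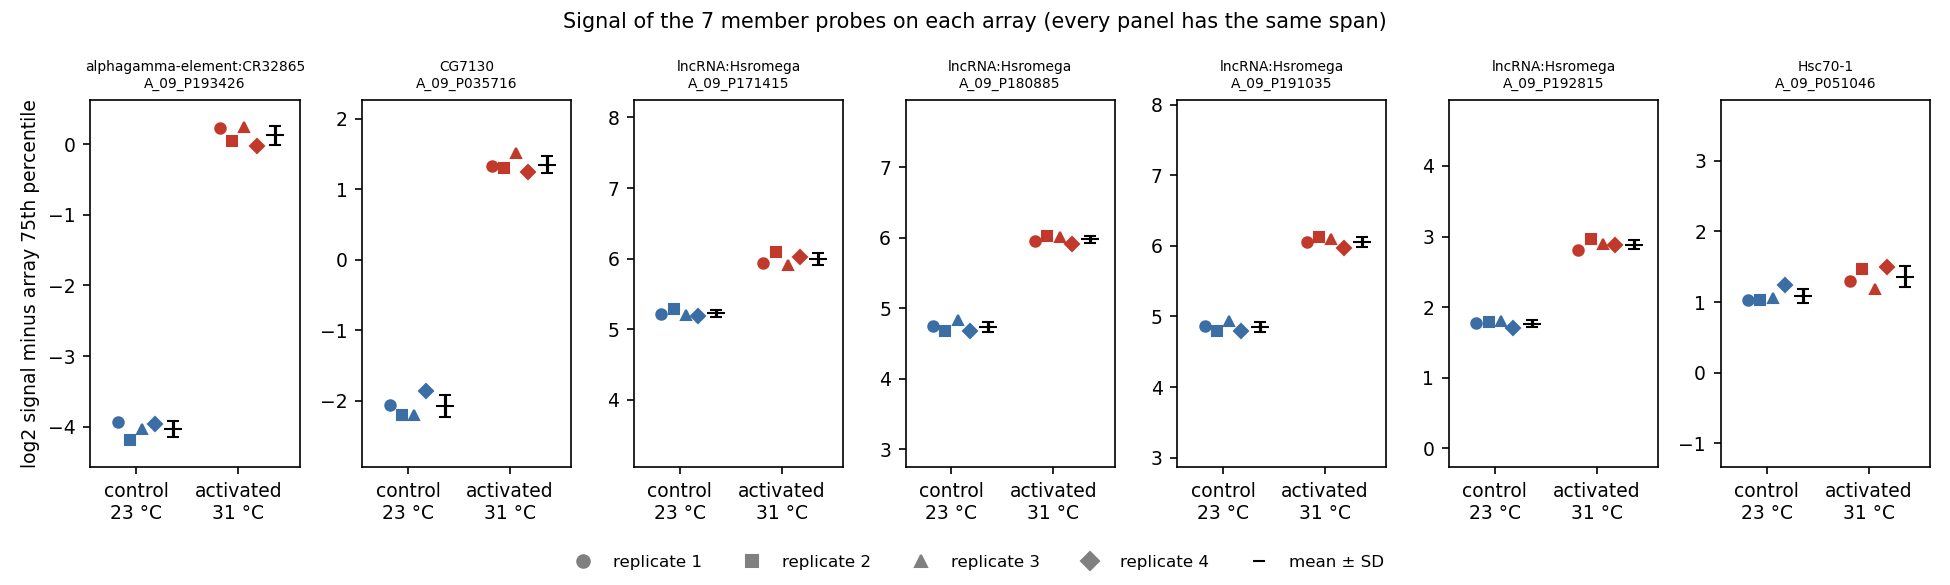
Log2 signal of each member probe on each of the 8 arrays (y axis, log2 units relative to the array's 75th percentile, each panel spanning the same number of units) by group (x axis). Symbols are the 4 replicates, bars the mean ± SD. The groups stand apart by over 3 units for lncRNA:alphagamma-element:CR32865 and CG7130, by 0.63 to 1.08 for the lncRNA:Hsromega probes, and overlap for Hsc70-1.

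lncRNA:Hsromega is read by 4 probes, and all of them were higher in activated_31C. The gene lies on chromosome arm 3R between SIFaR and aus and overlaps the microRNA gene mir-4951. Whether RNA of mir-4951 adds to the signal of these probes was not tested. The array assigns probes A_09_P180885 and A_09_P191035 to the transcript NR_002067, and probes A_09_P171415 and A_09_P192815 to NR_002068. Probes of 1 gene share their RNA and are no replicates of each other.

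Probe A_09_P180885 read 4.75, 4.68, 4.83 and 4.67 in control_23C and 5.96, 6.03, 6.01 and 5.92 in activated_31C. Its mean went from 4.73 ± 0.07 to 5.98 ± 0.05 (SD, n = 4), a log2 difference of 1.24 (SE 0.0447) or 2.37-fold. The groups of this probe did not overlap, with 1.08 log2 units between the nearest arrays. Probe A_09_P191035 read 4.87, 4.80, 4.94 and 4.80 in control_23C and 6.05, 6.13, 6.10 and 5.97 in activated_31C. Its log2 difference was 1.21 (SE 0.0486), or 2.31-fold, again with no overlap, so the pair assigned to NR_002067 gave like differences.

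Probe A_09_P192815 read 1.77, 1.79, 1.81 and 1.70 in control_23C and 2.81, 2.97, 2.89 and 2.88 in activated_31C. Its log2 difference was 1.12 (SE 0.0408), or 2.17-fold, without overlap. Probe A_09_P171415, also assigned to NR_002068, read 5.22, 5.29, 5.20 and 5.19 in control_23C and 5.93, 6.10, 5.92 and 6.02 in activated_31C. Its log2 difference was 0.77 (SE 0.0483), or 1.70-fold, without overlap and the smallest of the 4. Over the 4 probes the mean log2 difference was 1.08. Without the 3 arrays the differences were 1.25, 1.22, 1.11 and 0.76, in the order in which the probes are described.

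The smaller difference of A_09_P171415 also stood within single arrays. Its log2 ratio to A_09_P180885 was 0.47, 0.61, 0.36 and 0.52 on the control_23C arrays and −0.03, 0.08, −0.09 and 0.10 on the activated_31C arrays. The ratio was thus lower on all activated arrays than on any control array, with a mean shift of −0.48. Against A_09_P191035 the ratio shifted by −0.44 and against A_09_P192815 by −0.35, each without overlap. Among the other 3 probes the ratios moved less. That of A_09_P180885 to A_09_P191035 was −0.12 ± 0.01 in control_23C and −0.08 ± 0.02 in activated_31C, with overlap, and the shift was 0.12 for A_09_P180885 over A_09_P192815, without overlap, and 0.09 for A_09_P191035 over A_09_P192815, with overlap. The signals of the probes of 1 gene therefore changed unequally. Whether the transcripts themselves changed unequally was not tested. The pair assigned to NR_002067 stayed close together, while the pair assigned to NR_002068 came apart.

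**Figure D2:**
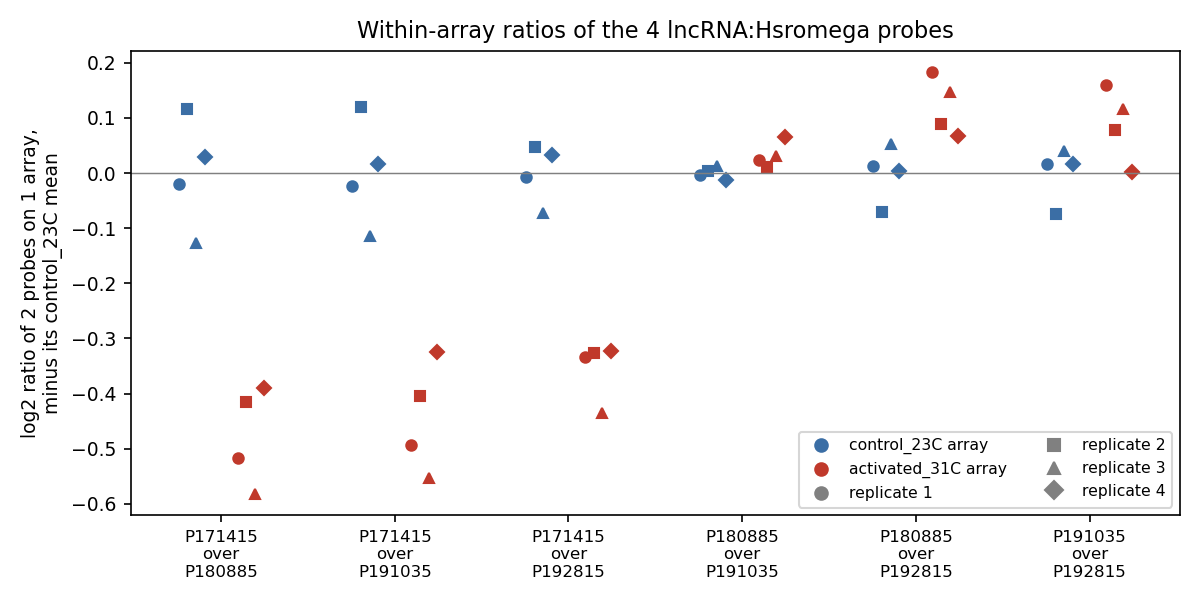
Log2 ratio of each pair of lncRNA:Hsromega probes on the same array, minus its control_23C mean (y axis), for the 6 pairs (x axis); each symbol is 1 array. The 3 pairs with A_09_P171415 on top lie below all control arrays in activated_31C, with mean shifts of −0.48 to −0.35 log2 units, while the other 3 pairs shift by at most 0.12.

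The scan behind these values differed between probes. The scanner files combine a scan at high and a scan at low detector gain, and a bright spot takes its value from the low-gain scan, scaled up. Probes A_09_P171415, A_09_P180885 and A_09_P191035 took it from the low-gain scan on 4 of 4 arrays of each group. Their intensities were between 125529 and 351491 units. In control_23C A_09_P171415 read 180160 to 204955 units, apart from A_09_P180885 (125529 to 151216) and A_09_P191035 (137350 to 162528). In activated_31C the ranges overlapped, at 298100 to 326042, 277892 to 331033 and 287784 to 351491 in that order. Probe A_09_P192815 took it on 4 activated_31C arrays but on 1 control_23C array, replicate 3, whose 18610 units lay beside 15997 to 18202 on the other control arrays. The part of the scan in the differences of A_09_P192815 was not tested. The part of spot brightness in the unequal changes of the lncRNA:Hsromega probes was not tested either. lncRNA:alphagamma-element:CR32865, CG7130 and Hsc70-1 were read from the high-gain scan on all arrays.

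Hsc70-1 encodes a cognate Hsp70 chaperone and is read by probe A_09_P051046, whose target is the cDNA clone RH49358. It lies on chromosome arm 3L between CG13738 and CG17364 and overlaps no gene in the Release 6 table. It belongs to a family with similar sequences, and whether its probe also binds RNA of a relative was not tested. Its control_23C levels were 1.03, 1.03, 1.06 and 1.24, and its activated_31C levels 1.30, 1.47, 1.19 and 1.49. The groups overlapped, since activated_31C replicate 3 lay below control_23C replicate 4. The mean went from 1.09 ± 0.10 (SD, n = 4) to 1.36 ± 0.14, a log2 difference of 0.27 (SE 0.0876) or 1.21-fold. It was 0.39 without the 3 arrays, and it shrank to 0.21 with quantile normalization and to 0.13 when arrays were centred on their spike-in controls. Of the 4 genes Hsc70-1 had the smallest difference and the only overlap. The log2 ratio of lncRNA:Hsromega, by A_09_P171415, to Hsc70-1 on the same array was 3.96 to 4.26 in control_23C and 4.53 to 4.73 in activated_31C. It was higher by 0.50 in the mean without overlap, so the non-coding RNA differed more than Hsc70-1 whatever the scaling.

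**Figure D3:**
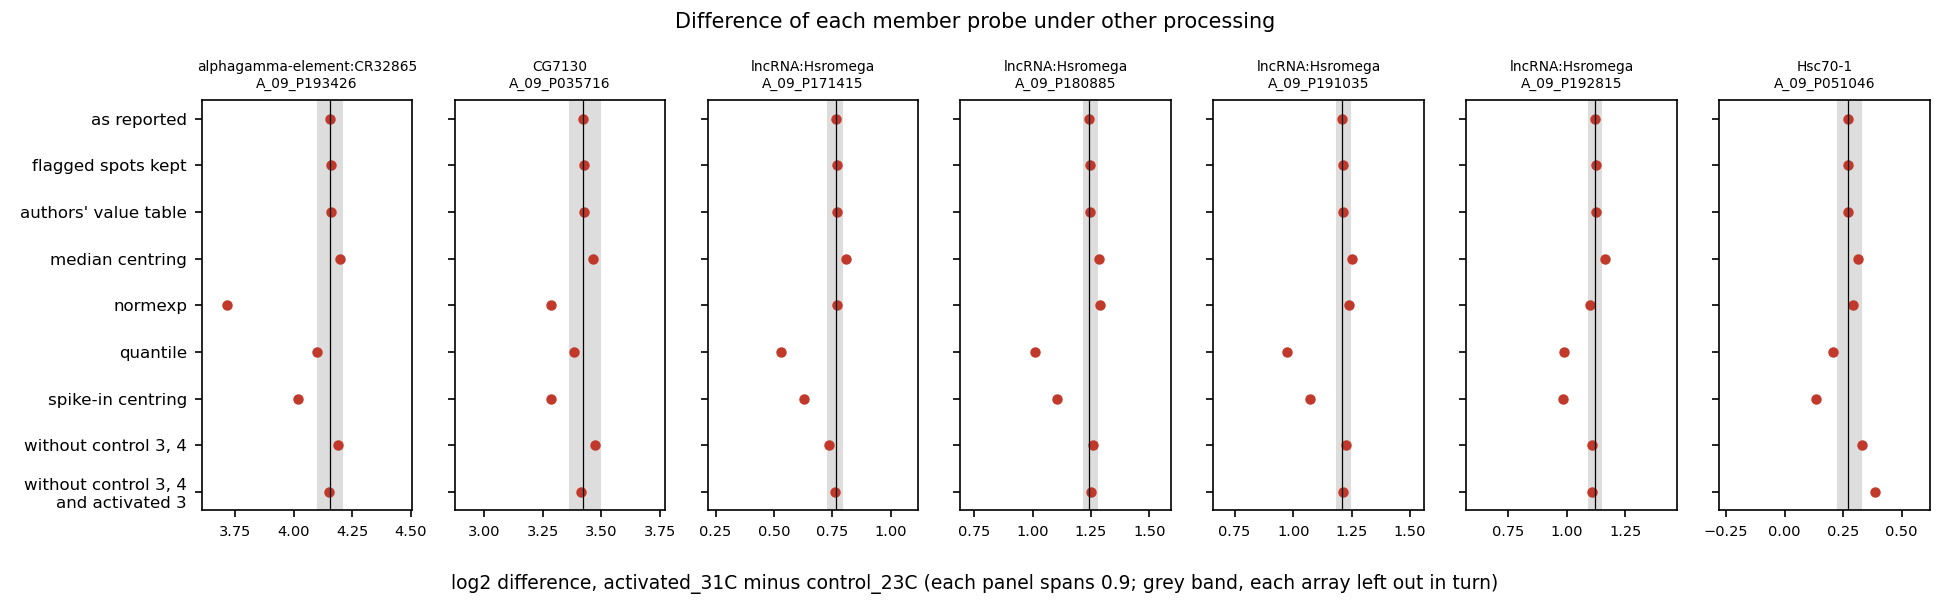
Log2 difference between the groups (x axis, each panel spanning the same number of units) for each member probe under the processing reported and 8 alternatives (y axis); the grey band is the range when each array is left out in turn. The differences are positive throughout. Normexp background correction lowers that of lncRNA:alphagamma-element:CR32865 to 3.71, and quantile normalization and spike-in centring lower those of the lncRNA:Hsromega probes.

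Within the groups the lncRNA:Hsromega probes were steadier than most probes, and the other member probes varied somewhat more than the median probe. The pooled SD within groups was 0.0577 to 0.0687 for the lncRNA:Hsromega probes, and 12.2% to 20.0% of all probes had a smaller one. It was 0.12 for Hsc70-1, 0.13 for lncRNA:alphagamma-element:CR32865 and 0.14 for CG7130, against a median of 0.11 over all probes. In that order, 55.1%, 55.8% and 61.0% of all probes had a smaller one. How the probes varied together within groups was described by the deviation of each array from its group mean, over 8 arrays. Probes on 1 array share its RNA pool, labelling and slide. The pair A_09_P180885 and A_09_P191035 varied almost as one, with a Pearson correlation of 0.96. Over the 6 pairs of lncRNA:Hsromega probes the correlation ran from −0.06 to 0.96, and the 2 lowest were those of A_09_P171415 with A_09_P180885 and with A_09_P191035. lncRNA:alphagamma-element:CR32865 and CG7130 had the highest correlation between genes, 0.69, and the lowest was that of lncRNA:alphagamma-element:CR32865 with A_09_P171415, −0.80. Hsc70-1 correlated with CG7130 at −0.07. CG7130 and Hsc70-1 were both highest on replicate 4 of control_23C, but within activated_31C CG7130 was highest on replicate 3, where Hsc70-1 was lowest.

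**Figure D4:**
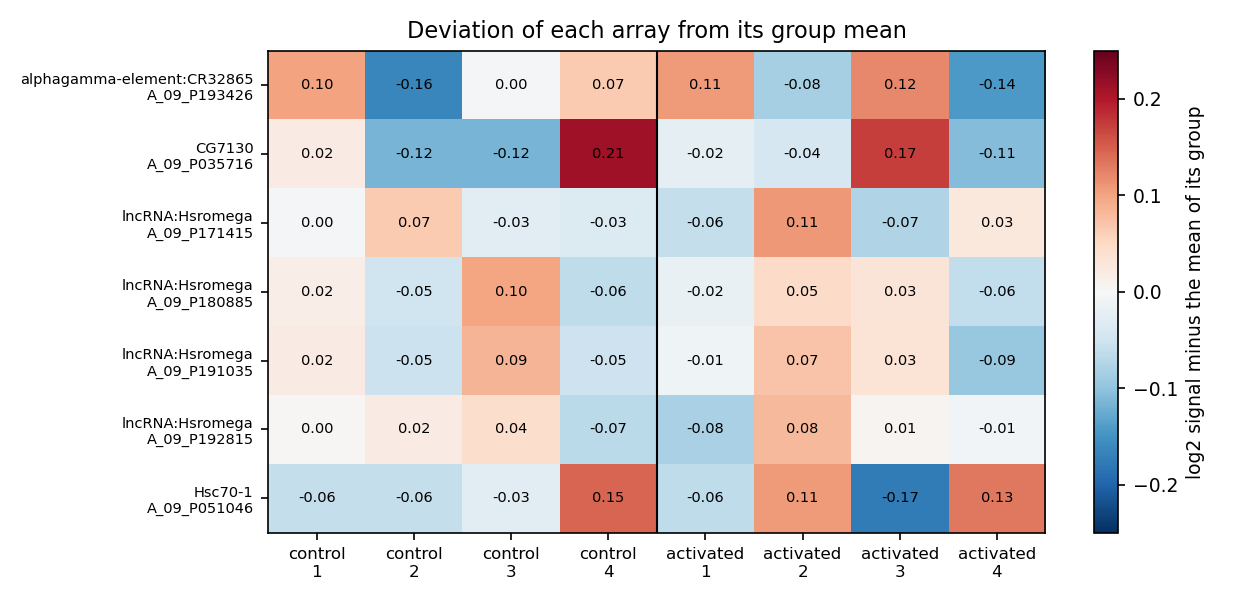
Deviation of each array (x axis) from the mean of its group, in log2 units (colour and printed value), for the 7 member probes (rows). The rows of A_09_P180885 and A_09_P191035 are nearly alike, while Hsc70-1 and CG7130 have their lowest and highest activated_31C value on the same array, replicate 3.

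Among all 22442 probes tested, the difference of lncRNA:alphagamma-element:CR32865 ranked 54th among positive differences and that of CG7130 118th. The lncRNA:Hsromega probes ranked between 946th and 1796th and Hsc70-1 4827th, so 21.5% of all probes had a larger positive difference than Hsc70-1. In 6 of the 7 member probes all activated_31C arrays lay above all control_23C arrays, against 19.0% of all probes, and 43.1% of all probes had groups apart in either direction. As the members were chosen with this comparison known, nothing is read from that count. The median difference was 1.21 over the 7 member probes, of which 4 read lncRNA:Hsromega, and −0.01 over all probes. For the same reason nothing is read from these medians.

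**Figure D5:**
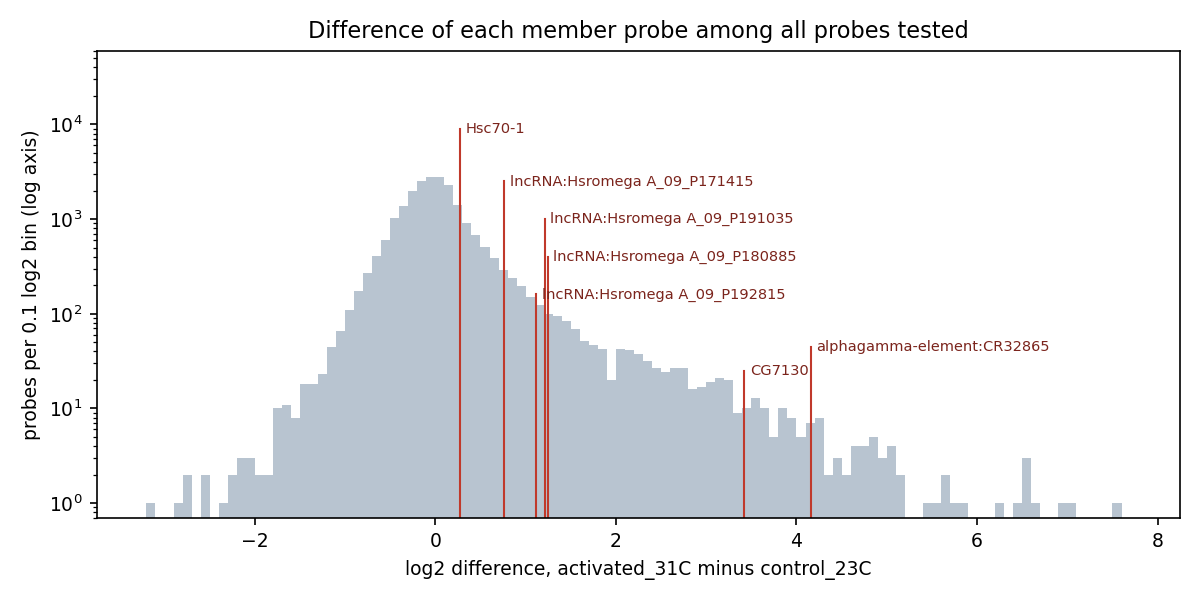
Number of probes (y axis, log scale) by log2 difference between the groups (x axis) over all probes tested, with red lines at the member probes. lncRNA:alphagamma-element:CR32865 (4.16) and CG7130 (3.42) lie in the far right tail, the lncRNA:Hsromega probes (0.77 to 1.24) on its shoulder and Hsc70-1 (0.27) beside the peak.

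The genes with the most similar profiles were sought among the other 256 genes with a symbol, by the root mean square distance over the 8 arrays between levels set relative to the control_23C mean. Nearest to lncRNA:alphagamma-element:CR32865 were sanpodo (spdo), a Notch pathway gene whose log2 difference was 3.05, at a distance of 0.81, and mbf1, a transcription coactivator gene, at 1.75. CG7387 stood between them at 1.06, but none of its control_23C values was well above background. Its activated_31C level was at least 1.70-fold higher, and its distance is uncertain. Among targets without a symbol the nearest were FBtr0078415, with a difference of 4.13 and a distance of 0.08, and NM_001110888, with 4.23 and 0.10. The files pair neither with a gene. For CG7130 the nearest gene was again spdo, at 0.30.

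For lncRNA:Hsromega, taken by A_09_P171415, the probe with the highest mean signal over the 8 arrays, the nearest was Ald1, which encodes the glycolytic enzyme aldolase, with a difference of 0.68 at a distance of 0.09. CG4619 followed with 0.82 at 0.09 and Mob2 with 0.93 at 0.13. For Hsc70-1 the nearest were CG33178 with a difference of 0.28 at 0.09, the homeobox gene ct (cut) with 0.24 at 0.10 and fau with 0.38 at 0.10. In the Release 6 table spdo overlaps PH4alphaEFB, mbf1 overlaps nxf2, CG7387 overlaps MED24, Ald1 overlaps asRNA:CR44321, CG4619 overlaps CG5853, CG33178 overlaps asRNA:CR44960, Mob2 overlaps mir-4968 and CG7394, and fau overlaps CG45076 and CG45078, so those values are uncertain as to their gene. Genes were picked here by this same comparison, so nearness carries no test. mbf1 is also in a gene list and is described with it.

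Other genes of the heat and chaperone pathways could be read only in small part. Of 161 symbols in 7 lists, 4 had a named probe that was tested, and for 4 of the lists, which hold the Hsp70, small heat shock, Hsp40, chaperonin and ubiquitin genes, there was none. The all-probe comparison used limma with Benjamini-Hochberg adjustment, and 43.4% of all probes passed at an adjusted p under 0.05. All 4 passed, 3 higher and 1 lower, which with so high a background gives no result about a list. The lists, like the members, were chosen with earlier results of these data known. The p-values given below for single genes are therefore a description.

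From the list of heat shock factor and its co-regulators, mbf1 was the 1 gene measured of 19 symbols. It read 1.37, 1.38, 1.48 and 1.47 in control_23C and 3.09, 3.15, 3.13 and 3.05 in activated_31C. It rose by 1.68 on the log2 scale (SE 0.0450, limma adjusted p = 4.4e-07), and the other probe of the gene rose by 1.73 (SE 0.0436, limma adjusted p = 3.92e-07).

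From the list of stress genes other than chaperones, 2 of 24 were measured. The 3 probes of chrb (charybde), an inhibitor of growth signalling through TOR, rose by 0.21 to 0.24 on the log2 scale, with a limma adjusted p of 0.00712 for the brightest. Sod1, which encodes a cytosolic superoxide dismutase, rose by 0.21 (SE 0.0436, limma adjusted p = 0.00592). Both calls depended on the scaling. With quantile normalization neither gene passed, and the difference of Sod1 turned to −0.04. With spike-in centring neither passed either, at 0.10 for chrb and 0.07 for Sod1. The call of Sod1 was also lost when control_23C replicates 3 and 4 were left out, with or without activated_31C replicate 3, at differences of 0.21 and 0.20.

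Cell types of the head could not be checked by their markers, since 1 of 39 marker symbols had a named probe. Sh, which encodes the Shaker potassium channel of neurons, was well above background on all 8 arrays. Its levels were 0.62 to 0.77 in control_23C and 0.44 to 0.60 in activated_31C, a log2 difference of −0.16 (limma adjusted p = 0.0384) that missed the threshold when any 1 of 6 arrays was left out, and at −0.12 with median centring and −0.30 with spike-in centring. Sh also missed the threshold without control_23C replicates 3 and 4, at −0.16, and without these and activated_31C replicate 3, at −0.18. The same held when no detection filter was used. The gene overlaps CG12672, CG6867 and CG15373. The part of cell composition in the members' differences was not tested.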

How the data were processed

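RNA (0.4 ug per sample) was labelled with Cy3, per the labels' protocols. The deposited scanner files hold spot intensity values, background-subtracted and detrended by Agilent Feature Extraction, version 10.7.3.1 in the file headers and 9.1.3.1 in the submitters' processing notes. The design's build is dm3. The authors' deposited log2 value table, whose steps no source used here gives, followed each probe's deviations from its median (r 0.994 to 1.00 by array, column medians −0.0621 to 0.0378).

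Control spots and 1108 outlier-flagged spots were left out, log2 signals were averaged over a probe's spots, and each array's 75th percentile (4601 to 5340 units) was subtracted. Tested probes were well above background on every array of a group and measured on at least 6 arrays. The 4 arrays per group limit the precision. The p-values set the difference between groups against the spread between these pools, and cannot separate group from slide.

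limma 3.58.1 in R 4.3.3 compared the groups over all probes, after the script was tested on simulated data. Names came from RefSeq's Release 6 gene table, without coordinates since builds differ. Members' SEs come from the group SDs, others from limma. The members and lists were chosen with earlier results of these data known. Named were all member probes, every measured list gene but 1 that is not reported here, the 3 genes nearest in profile to each member and 2 unnamed targets. Normexp used the median spot signal. The 20 alternatives covered background, scaling, filters, probes, arrays and a replicate block.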

Additional observations from a re-analysis of the deposited data

Results flagged for a closer look

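Of 44 groups of 4 arrays checked, 4 held an array set well apart, judged by its distance to the nearest array as a share of the group's range; chance gives about 1 in 20, or 2.2 groups. For Hsc70-1 in control_23C that share was 0.846, with replicate 4 highest at 1.24 and the others at 1.03 to 1.06. Without that array the difference of Hsc70-1 was 0.32. For spdo in control_23C it was 0.931, with replicate 4 highest at −3.71 and the others at −4.19 to −4.16. For CG4619 it was 0.87 in control_23C, with replicate 3 lowest at −5.69, and 0.909 in activated_31C, with replicate 1 lowest at −4.99.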

How the results depend on the processing

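The differences of the 4 member genes stayed positive under every alternative run. With each array left out in turn they were 4.10 to 4.20 for lncRNA:alphagamma-element:CR32865, 3.37 to 3.49 for CG7130, 0.73 to 0.79 for lncRNA:Hsromega (A_09_P171415) and 0.23 to 0.33 for Hsc70-1. Values that moved by more than the spread between replicates were 3.71 with normexp and 4.02 after spike-in centring for lncRNA:alphagamma-element:CR32865, 3.28 with normexp for CG7130, 0.53 with quantile normalization and 0.63 after spike-in centring for lncRNA:Hsromega, and 0.13 after spike-in centring for Hsc70-1. The offset of 50 in normexp shrinks dim differences by itself. For lncRNA:Hsromega the other probes gave 1.24, 1.21 and 1.12 and the mean over probes 1.08. Of all probes, 9741 passed the threshold, 4290 higher and 5451 lower, and 5438, 2739 and 2699 without control_23C replicates 3 and 4 and activated_31C replicate 3, with fewer arrays. With 1 array left out 8440 to 9453 probes passed, 3659 to 4020 higher and 4552 to 5433 lower, and 4 list genes each time. Spike-in centring, under which the median difference of all probes was −0.148 against −0.0101 as reported, called 1889 higher. The share of calls that were higher was 44.0% as reported, 28.6% with spike-in centring, 34.1% with quantile normalization and 52.2% with median centring, where higher calls outnumbered lower ones; the cause was not tested. Of the 4 list genes 2 passed with quantile normalization, where Sod1 turned to −0.0382, and 2 with spike-in centring. With the replicate number as a replicate block 8805 probes passed, with the 4 list genes among them. The sample titles state no pairing. The deviations of same-numbered arrays correlated at −0.281 to 0.646, and not every array correlated best with its own number. Such correlations cannot show whether samples were paired.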
